A study of Mus musculus with 6 samples.

Results

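The genes described here are 45 genes of ribosome biogenesis and the nucleolus, chosen by name with earlier results of these data known. They were looked up by gene symbol in the authors' normalized table. All 45 were found among its 16111 genes, and all 45 had enough counts to be tested among 11408 genes. They were compared between cultured mouse fetal liver macrophages of 3 wild-type (WT) and 3 Ahrr-deficient (AhRR-/-) mice, of the strain given as C57BL/6 RCC in both groups. Ahrr encodes a protein that represses AhR, the aryl hydrocarbon receptor, which switches on transcription when it binds a ligand, and the study asks which transcripts differ when it is missing. Cells came from E13.5 fetuses and were kept for 5 weeks with 2% GM-CSF, on which macrophages grow. Only the non-adherent cells of each culture were sequenced, as whole-culture polyA RNA. Fewer cells of a type and less RNA per cell therefore cannot be told apart in any value below. The labels number the mice 1 to 3 within each genotype, so each library is taken as 1 mouse. They do not say whether fetuses were pooled or whether controls were littermates, nor how the Ahrr allele was made.

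Ribosomes are built in the nucleolus, where RNA polymerase I transcribes a long precursor of the ribosomal RNAs. Small nucleolar RNAs (snoRNAs) guide chemical changes on that precursor, in particles of the box C/D type, which methylate it, and of the box H/ACA type, which convert uridine to pseudouridine. A large assembly called the small subunit processome folds and cuts the part that becomes the 40S subunit, and a separate series of factors matures the 60S subunit. Growing cells, macrophages that divide in response to growth factors among them, make many ribosomes, and the transcription factor Myc is a well-known activator of these genes.

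Promoter letters are shown for 4 members with different outcomes: Dkc1, Nop58 and Utp18, which passed the test in most alternative fits, and Ncl, which did not pass it. Each is the run of 100 bases directly upstream of the outermost annotated start, from RefSeq on GRCm38.p6, written 5' to 3' on the gene's own strand. Capitals mark matches to CACGTG, the E-box bound by Myc and related factors, or to GCGTG and its reverse complement CACGC, the core of the AhR response element.
Dkc1, chrX:75095754-75095853, plus strand: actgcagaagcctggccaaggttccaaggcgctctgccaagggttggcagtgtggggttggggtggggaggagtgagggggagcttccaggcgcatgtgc
Nop58, chr1:59684871-59684970, plus strand: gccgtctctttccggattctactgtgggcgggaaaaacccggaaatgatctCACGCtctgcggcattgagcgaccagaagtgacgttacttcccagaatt
Utp18, chr11:93885767-93885866, minus strand: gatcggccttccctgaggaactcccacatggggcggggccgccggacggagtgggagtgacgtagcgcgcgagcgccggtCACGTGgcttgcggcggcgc
Ncl, chr1:86359456-86359555, minus strand: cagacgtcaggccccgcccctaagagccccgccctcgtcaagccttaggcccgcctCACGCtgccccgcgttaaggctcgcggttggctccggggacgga
The Dkc1 window held neither motif. Utp18 held the E-box, starting at position -20 counted back from the end of the run, while Nop58 and Ncl held the CACGC core at -49 and -44. A match of letters is a description and not a binding site.

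Both motifs were also counted, on both strands, in the RefSeq promoter windows from 250 bases before to 50 bases after each start. Neither motif contains the other. Windows were matched for 40 of the 45 genes, with 44 promoters in all. CACGTG was found in 8 of the 44 (18.2%), against 10.3% of the promoters of tested genes and 7.15% of all promoters in the table. Those 8 promoters belong to Imp4, Nop2, Utp18, Tsr1, Utp20, Pes1, Mybbp1a and Wdr43, of which Utp18 and Tsr1 passed the expression test described below. GCGTG was found in 34 of the 44 (77.3%), against 51.1% of the promoters of tested genes and 32.4% of all promoters. Among the 13 promoters of members that passed the test the shares were 15.4% for CACGTG and 69.2% for GCGTG.

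The libraries differed in depth, from 3556106 counts in Ahrr-deficient replicate 1 to 41668336 in Ahrr-deficient replicate 2, with 6300421 to 21939809 in the WT libraries. Levels are given as counts per 1000000 counts (CPM), scaled with TMM factors, and a floor of 3 counts was 0.0720 to 0.844 CPM. Every member had at least 13 counts in every library, so none was near the floor. Levels are compared between libraries, for 1 gene or for a sum over a fixed list, and are not scaled for gene length. Ahrr itself had 4.60, 4.74 and 5.21 CPM in WT and 2.23, 2.47 and 1.18 CPM in Ahrr-deficient replicates 1 to 3, a log2 fold change of -1.21 (SE 0.26, adjusted p 0.0151 by edgeR). That call was lost after thinning and without WT replicate 1 or WT replicate 3 (adjusted p up to 0.0631 by edgeR without a library). Ahr, the receptor gene, had 7.65, 5.44 and 3.57 CPM in WT and 10.9, 31.9 and 23.3 CPM in Ahrr-deficient replicates 1 to 3, a log2 difference of 2.00 (SE 0.35, adjusted p 0.00709 by edgeR) without overlap. All 12 listed macrophage markers were present, with summed levels of 25480 to 27950 CPM in WT and 15910 to 23770 CPM in Ahrr-deficient libraries, and Cd14 and Csf1r were among the genes that were lower. Lymphocyte and mast cell markers had no row for any of their 7 listed genes each, and the hepatocyte markers with a row summed to at most 1.09 CPM. Neutrophil markers summed to at most 2.98 CPM, and fibroblast and endothelial markers to at most 1.10 CPM. Of other marker lists, 3 of 8 tested alveolar-type macrophage genes were higher (Itgax, Pparg and Car4) and 1 was lower (Cidec). Over all tested genes 9.62% were called higher and 9.95% lower. Cidec had 1.11 CPM in Ahrr-deficient replicate 1, near the floor of 0.844 CPM there. Among dendritic genes 1 of 2 was higher (Clec9a), and the 1 tested erythroid gene, Epor, was lower, while the globin genes had no row. Over the 6 fits that each left out 1 library, the calls of Itgax, Pparg, Car4 and Epor held in all, that of Cidec in 4 and that of Clec9a in 2. The 1 tested megakaryocyte gene, Itga2b, was lower, at 2.74 to 3.00 CPM in WT and 1.18 to 1.95 CPM in Ahrr-deficient libraries. Its call held in 2 of those 6 fits and was lost with DESeq2. In WT replicate 2 the ribosomal RNA feature CT010467.1 stood at 58390 CPM, against 76.4 to 653 CPM in the other libraries. Rn7sk, listed with it among abundant RNA features, was also high there, with 9.24, 267 and 7.13 CPM in WT. In Ahrr-deficient replicates 1 to 3 Rn7sk had 5.01, 2.10 and 1.28 CPM. It was called lower, at -5.36 on the log2 scale (adjusted p 0.0393 by edgeR), a call lost with DESeq2, limma-voom and GC offsets. The call was also lost without Ahrr-deficient replicate 2 or Ahrr-deficient replicate 3 (adjusted p up to 0.149 by edgeR).

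Of the 45 genes, 12 (26.7%) were higher in Ahrr-deficient cells at an edgeR adjusted p under 0.05, 0 were lower and 33 were not past the threshold. Over all 11408 tested genes 19.6% were called, 9.62% higher and 9.95% lower. The log2 fold change was above 0 for 42 of the 45, against 50.9% of all tested genes. Its median was 0.34 over the 45 and 0.01 over all tested genes, so the typical difference was small, and the range was -0.32 to 1.02. A fold change of at least 1.5 was found for 11 members and of at least 2 for 1, Gar1, which did not pass the test. At an unadjusted p under 0.05 there were 24 members, 1 of them lower, where 35.8% of all tested genes reached that level. The 45 genes were chosen with earlier results of these data known. Their counts and median beside those of all tested genes are therefore no independent support for a difference.

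**Figure D1:**
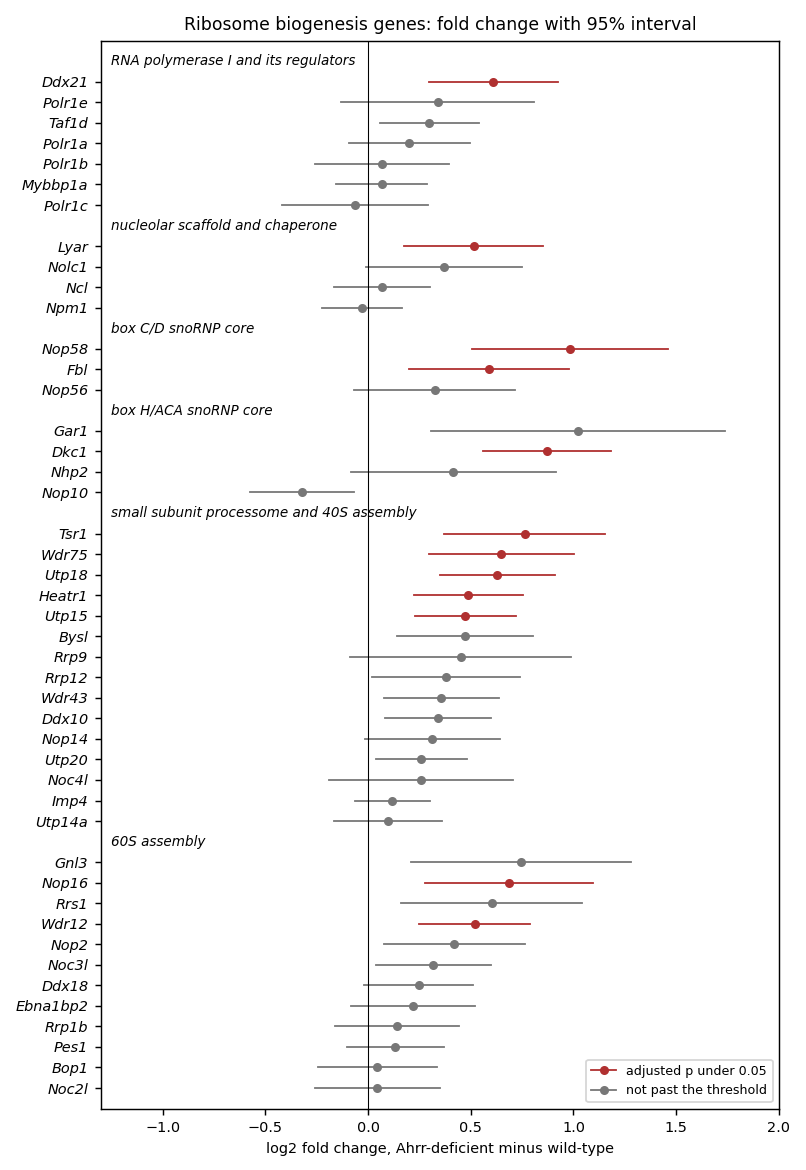
Log2 fold change (Ahrr-deficient minus wild-type, horizontal axis) of each of the 45 genes, grouped by role, with its 95% interval as a line. Red marks the 12 genes past the threshold, and 42 of the 45 points lie above 0.

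The 3 Ahrr-deficient libraries were not alike. The median over the 45 genes of the log2 ratio to the WT mean was 0.04 in replicate 1, 0.60 in replicate 2 and 0.23 in replicate 3. In the WT libraries it was -0.01, 0.01 and -0.01, and over all tested genes it was within 0.01 of 0 in each library. Replicate 1, the shallowest library, was the lowest Ahrr-deficient library for 35 of the 45 genes, and replicate 2, the deepest, was the highest for 42. Over all tested genes replicate 1 was the lowest for 41.8% and replicate 2 the highest for 32.3%. Replicate 2 exceeded every WT library in 42 members, replicate 3 in 35 and replicate 1 in 17, while replicate 1 lay below every WT library in 15. The part of depth in this order was not tested beyond the thinning given below.

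**Figure D2:**
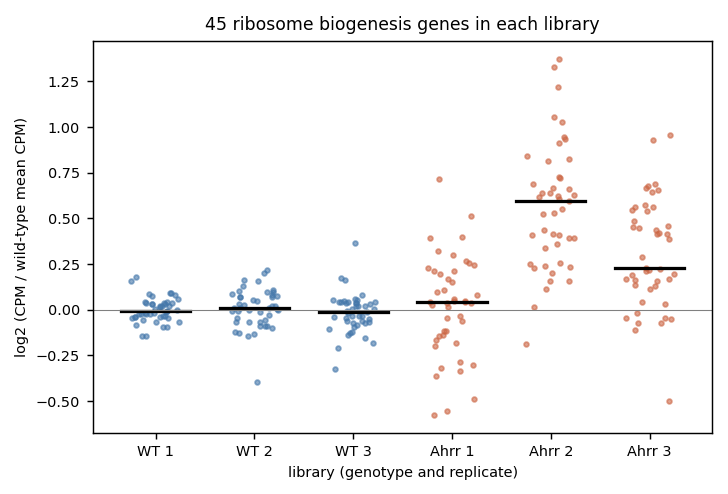
Log2 ratio of each gene's CPM to its wild-type mean (vertical axis) in each of the 6 libraries (horizontal axis), with 1 point per gene for the 45 genes. Black bars are medians, which stand at 0.04, 0.60 and 0.23 in Ahrr-deficient replicates 1, 2 and 3 and within 0.02 of 0 in the wild-type libraries.

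The Ahrr-deficient libraries lay entirely above the WT libraries for 16 of the 45 genes, where 19.2% of all tested genes did so, and entirely below them for 1, Nop10, where 19.6% did so. Summed over the 45 genes, the level was 1924, 1993 and 1901 CPM in WT and 1961, 2600 and 2227 CPM in Ahrr-deficient replicates 1 to 3. The means were 1939 ± 48.1 CPM and 2263 ± 321 CPM (SD, n = 3 each), a ratio of 1.17, and the groups overlapped. Ncl and Npm1 made up 26.3% to 33.7% of that sum, in which genes are not weighted for length. Without them the means were 1314 ± 10.8 CPM and 1625 ± 290 CPM (SD, n = 3 each), a ratio of 1.24.

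RNA polymerase I and its regulators made up 7 of the genes, of which 1 rose, Ddx21, beside 9.62% of all tested genes. None of the 4 subunits listed passed the test. Polr1a, the largest subunit of the enzyme, had 41.2, 38.8 and 41.8 CPM in WT and 36.8, 53.9 and 46.6 CPM in Ahrr-deficient replicates 1 to 3. On the log2 scale the difference was 0.20 (95% interval -0.09 to 0.50, adjusted p 0.30 by edgeR), and replicate 1 lay below all WT libraries. Polr1b, the second-largest subunit, had 17.2, 21.2 and 18.5 CPM in WT and 15.6, 22.3 and 18.8 CPM in Ahrr-deficient replicates. Replicate 1 lay below every WT library, replicate 2 above and replicate 3 between, with a log2 fold change of 0.07 (95% interval -0.26 to 0.40, adjusted p 0.764 by edgeR). The fold changes of Polr1c, a subunit shared with RNA polymerase III, and of Polr1e were -0.07 and 0.34 on the log2 scale, with edgeR adjusted p-values of 0.801 and 0.276.

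Ddx21, an RNA helicase that acts in polymerase I transcription and in processing of the precursor, had 86.4, 87.4 and 90.1 CPM in WT (ENSMUSG00000020075.8, GRCm38 chromosome 10, 62580251 to 62602281, minus strand). In Ahrr-deficient replicates 1, 2 and 3 it had 102, 157 and 139 CPM, all above WT. It rose on the log2 scale by 0.61 (SE 0.14, adjusted p 0.0183 by edgeR). Taf1d, a subunit of the polymerase I selectivity factor, was also above WT in all 3 libraries, at 53.2, 51.2 and 44.3 CPM against 36.6, 42.7 and 42.0 CPM. Its log2 fold change of 0.30 did not pass the test (adjusted p 0.0803 by edgeR). Mybbp1a, a repressor of ribosomal RNA synthesis, had a log2 fold change of 0.07 (adjusted p 0.664 by edgeR).

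Box C/D particles have Fbl, Nop56 and Nop58 as core proteins in this list, and 2 of the 3 rose, beside 9.62% of all tested genes. Nop58, which binds the guide RNA as a scaffold (ENSMUSG00000026020.9, GRCm38 chromosome 1, 59684971 to 59719044, plus strand), had 20.1, 21.2 and 22.5 CPM in WT and 26.2, 53.4 and 40.5 CPM in Ahrr-deficient replicates 1 to 3. Each Ahrr-deficient library lay above each WT library, and the promoter run printed for it held the CACGC core. Its log2 fold change of 0.98 (SE 0.21, adjusted p 0.0148 by edgeR) was the largest among the 12 genes past the threshold. Fbl, the methyltransferase fibrillarin (ENSMUSG00000046865.7, GRCm38 chromosome 7, 28169710 to 28179269, plus strand), had 22.8, 19.7 and 21.7 CPM in WT and 21.7, 37.6 and 33.9 CPM in Ahrr-deficient replicates. It rose on the log2 scale by 0.59 (SE 0.17, adjusted p 0.0431 by edgeR), and it was the 1 gene of the 12 whose groups overlapped, with replicate 1 inside the WT range.

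Nop56, the partner of Nop58, had 44.5, 44.8 and 43.1 CPM in WT and 39.3, 69.9 and 51.8 CPM in Ahrr-deficient replicates 1 to 3. Replicate 1 was below every WT library and replicates 2 and 3 were above, and the log2 fold change of 0.32 (95% interval -0.07 to 0.72) did not pass the test (adjusted p 0.216 by edgeR). Nop58 thus passed where its partner did not, and the difference between the 3 core proteins was not tested.

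Box H/ACA particles hold Dkc1, Gar1, Nhp2 and Nop10, and these 4 differed in direction. Dkc1, the pseudouridine synthase dyskerin (ENSMUSG00000031403.14, GRCm38 chromosome X, 75095854 to 75109777, plus strand), had 12.3, 13.7 and 11.5 CPM in WT and 20.6, 26.1 and 20.1 CPM in Ahrr-deficient replicates 1 to 3. All 3 Ahrr-deficient libraries, replicate 1 included, were above WT, with means of 12.5 ± 1.10 and 22.3 ± 3.29 CPM (SD, n = 3 each). It rose on the log2 scale by 0.87 (SE 0.14, adjusted p 0.00519 by edgeR), the smallest adjusted p of the 45.

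Gar1, a core protein needed for the catalytic activity of the particle, had 3.96, 3.16 and 5.35 CPM in WT and 3.62, 10.8 and 8.05 CPM in Ahrr-deficient replicates. Its log2 fold change of 1.02 was the largest of the 45 and missed the threshold (SE 0.32, adjusted p 0.0516 by edgeR), with replicate 1 inside the WT range. Nhp2, which binds the guide RNA, was at 25.4, 23.9 and 17.8 CPM in WT and 18.1, 36.9 and 30.6 CPM in Ahrr-deficient replicates, a log2 fold change of 0.42 (adjusted p 0.213 by edgeR). Nop10, the smallest core protein, went the other way, with 23.6, 22.8 and 24.1 CPM in WT and 18.7, 20.6 and 16.6 CPM in Ahrr-deficient replicates. Its libraries did not overlap, and its log2 fold change of -0.32 (95% interval -0.57 to -0.07) did not pass the test (adjusted p 0.0737 by edgeR).

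Factors of the small subunit processome and of 40S assembly were the largest group, with 15 genes. Of these, 5 rose, 0 fell, and all 15 had a log2 fold change above 0, with a median of 0.38. Among all tested genes 9.62% rose and 50.9% had a log2 fold change above 0. Utp15, Heatr1, Wdr75 and Wdr43 belong to the subcomplex that joins the precursor first and is linked to its transcription. Wdr43 did not pass the test, at a log2 fold change of 0.36 (adjusted p 0.0727 by edgeR), and its groups overlapped.

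Wdr75 (ENSMUSG00000025995.16, GRCm38 chromosome 1, 45795166 to 45823619, plus strand) had 19.6, 17.9 and 19.6 CPM in WT and 22.6, 35.9 and 28.1 CPM in Ahrr-deficient replicates 1 to 3. It rose on the log2 scale by 0.65 (SE 0.16, adjusted p 0.0219 by edgeR). Heatr1 (ENSMUSG00000050244.9, GRCm38 chromosome 13, 12395027 to 12440289, plus strand) had 44.6, 47.6 and 43.8 CPM in WT and 54.0, 73.1 and 60.4 CPM in Ahrr-deficient replicates, a log2 fold change of 0.49 (SE 0.12, adjusted p 0.0216 by edgeR). In both, every Ahrr-deficient library exceeded every WT library. Utp15 (ENSMUSG00000041747.3, GRCm38 chromosome 13, 98246845 to 98263041, minus strand) had 26.8, 27.7 and 28.1 CPM in WT and 32.3, 41.6 and 38.5 CPM in Ahrr-deficient replicates. This was a log2 difference of 0.47 (SE 0.11, adjusted p 0.0193 by edgeR), the smallest of the 12, again without overlap.

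Utp18, of the processome subcomplex that also holds Utp6 (ENSMUSG00000054079.12, GRCm38 chromosome 11, 93859243 to 93885766, minus strand), had 23.1, 23.0 and 21.4 CPM in WT and 29.5, 39.9 and 32.8 CPM in Ahrr-deficient replicates 1 to 3. All 3 lay above WT for this gene with the printed E-box, a log2 fold change of 0.63 (SE 0.12, adjusted p 0.0106 by edgeR). Tsr1, a GTPase-like factor that caps late 40S precursors (ENSMUSG00000038335.13, GRCm38 chromosome 11, 74898071 to 74909342, plus strand), had 14.7, 15.3 and 13.2 CPM in WT and 17.3, 29.3 and 23.0 CPM in Ahrr-deficient replicates. It rose on the log2 scale by 0.76 (SE 0.17, adjusted p 0.0183 by edgeR). Exons of Srr overlap those of Tsr1 over 1240 bp on the opposite strand, so its counts are uncertain where the use of strand in counting is unknown.

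The other 10 genes of the group were Bysl, Rrp9, Rrp12, Wdr43, Ddx10, Nop14, Utp20, Noc4l, Imp4 and Utp14a, with log2 fold changes between 0.10 and 0.47. Bysl, a factor of late 40S maturation, was nearest to the threshold at 0.47 (adjusted p 0.0512 by edgeR). Ddx10, an RNA helicase, and Utp20, a large scaffold protein, lay above WT in all 3 libraries without passing (adjusted p 0.0648 and 0.0927 by edgeR). Rrp9, a protein of the U3 snoRNA particle, spread from 7.80 CPM in replicate 1, below all WT libraries, to 18.1 CPM in replicate 2.

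Factors of 60S assembly numbered 12, and 2 of them rose, with all 12 log2 fold changes above 0 and a median of 0.28. The shares among all tested genes were 9.62% called higher and 50.9% above 0. Nop16, a small nucleolar protein of 60S precursors (ENSMUSG00000025869.11, GRCm38 chromosome 13, 54584185 to 54590090, minus strand), had 12.6, 12.5 and 11.7 CPM in WT and 13.1, 23.6 and 19.1 CPM in Ahrr-deficient replicates 1 to 3. Its rise of 0.69 on the log2 scale (SE 0.18, adjusted p 0.0300 by edgeR) came without overlap, though replicate 1 exceeded WT only slightly. Wdr12 (ENSMUSG00000026019.15, GRCm38 chromosome 1, 60069785 to 60098645, minus strand) had 17.8, 19.1 and 16.6 CPM in WT and 22.3, 28.3 and 24.2 CPM in Ahrr-deficient replicates. The fold change was 0.52 on the log2 scale (SE 0.12, adjusted p 0.0189 by edgeR), with all 3 libraries above WT.

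Wdr12 works in a trimer with Pes1 and Bop1, whose log2 fold changes were 0.13 (95% interval -0.10 to 0.37, adjusted p 0.392 by edgeR) and 0.05 (95% interval -0.24 to 0.33, adjusted p 0.834 by edgeR). The 3 members of the trimer thus gave 1 call, and their fold changes were not tested against each other. Gnl3, the GTPase nucleostemin, showed the widest spread of the group, with 34.5, 35.1 and 36.8 CPM in WT and 36.5, 82.4 and 52.3 CPM in Ahrr-deficient replicates. Its log2 fold change of 0.74 missed the threshold (SE 0.24, adjusted p 0.0566 by edgeR), as did that of Rrs1, a factor that brings the 5S particle to the precursor, at 0.60 (adjusted p 0.0594 by edgeR). Nop2, an RNA methyltransferase, Noc3l, Ddx18, Ebna1bp2, Rrp1b and Noc2l had log2 fold changes between 0.04 and 0.42 and did not pass.

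Nucleolar scaffold and chaperone genes were Ncl, Npm1, Nolc1 and Lyar, of which Lyar rose, beside 9.62% of all tested genes. Ncl, nucleolin (ENSMUSG00000026234.12, GRCm38 chromosome 1, 86344719 to 86359400, minus strand), had 363, 399 and 357 CPM in WT and 383, 429 and 361 CPM in Ahrr-deficient replicates 1 to 3. Its groups overlapped, with a log2 fold change of 0.07 (95% interval -0.16 to 0.30, adjusted p 0.672 by edgeR). Npm1, nucleophosmin (ENSMUSG00000057113.13, GRCm38 chromosome 11, 33152287 to 33163206, minus strand), had 243, 272 and 242 CPM in WT and 242, 255 and 245 CPM in Ahrr-deficient replicates. On the log2 scale the difference was -0.03 (95% interval -0.22 to 0.17, adjusted p 0.844 by edgeR), and processed copies of Npm1 in the genome make its counts uncertain. The intervals of both genes exclude a rise of the size seen for Nop58 or Dkc1.

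Lyar, a zinc-finger protein of the nucleolus (ENSMUSG00000067367.9, GRCm38 chromosome 5, 38220470 to 38234306, plus strand), had 12.02, 10.88 and 10.97 CPM in WT and 12.5, 18.6 and 15.5 CPM in Ahrr-deficient replicates 1 to 3. It rose on the log2 scale by 0.51 (SE 0.15, adjusted p 0.0425 by edgeR), and replicate 1 was only just above WT. Nolc1, a chaperone of snoRNA particles, was at 43.5 to 44.6 CPM in WT and 38.7, 67.8 and 58.9 CPM in Ahrr-deficient replicates, a log2 fold change of 0.37 (adjusted p 0.151 by edgeR).

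**Figure D3:**
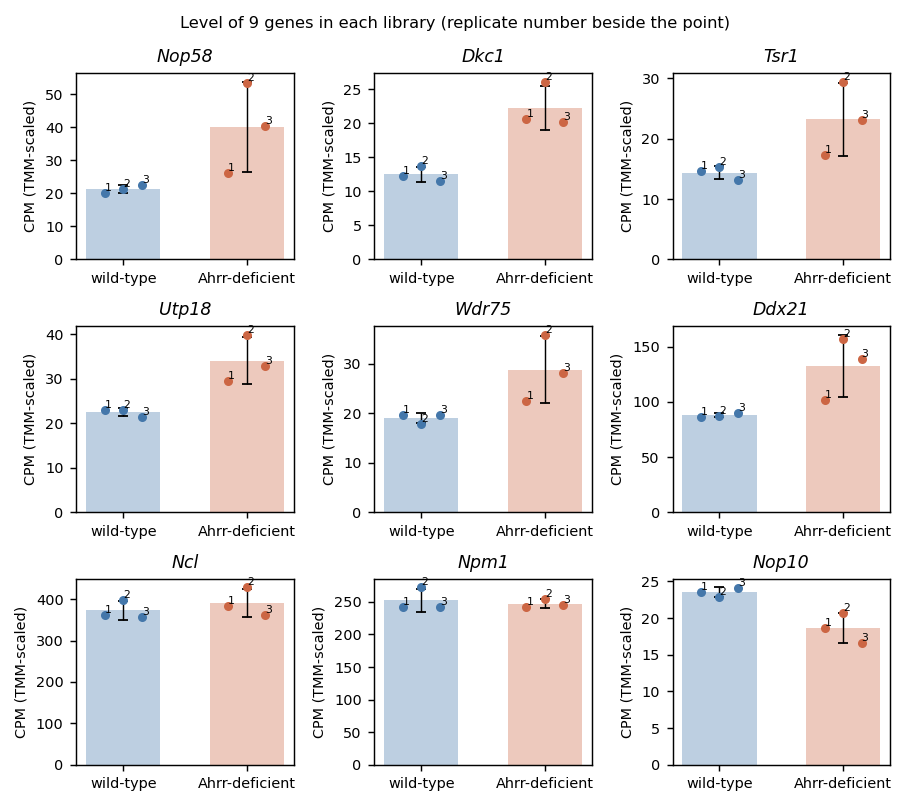
TMM-scaled CPM (vertical axes, from 0) of 9 genes in each library, with the replicate number beside each point. Ahrr-deficient points lie above wild-type for Nop58, Dkc1, Tsr1, Utp18, Wdr75 and Ddx21, overlap it for Ncl and Npm1, and lie below it for Nop10, which did not pass the test.

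Of the 12 genes that rose, 11 had no overlap between the groups, where 19.2% of all tested genes lay entirely above WT. The 12 were chosen by a test on the same libraries, so that count is no separate support. Replicate 1 was the lowest Ahrr-deficient library in 11 and replicate 2 the highest in all 12, beside 41.8% and 32.3% of all tested genes. The number of calls moved with single libraries, among the 45 as among all tested genes, and every member called in these fits was higher. It was 1 without WT replicate 1, where 2.86% of all tested genes were called higher. Without WT replicate 2 and WT replicate 3 it was 3 each, beside 3.72% and 4.17%. Without Ahrr-deficient replicates 2 and 3 it was 3 and 5, beside 4.10% and 5.04%. Without Ahrr-deficient replicate 1 it was 28, all 12 included, beside 16.0%. Dkc1 was past the threshold in all 6 of these fits (edgeR adjusted p 0.00194 to 0.0354). Utp18 passed in 5, with an edgeR adjusted p of 0.0524 without WT replicate 1, and Nop58 in 4, with 0.0764 without WT replicate 1 and 0.0547 without WT replicate 2. Wdr12 passed in 3 of the 6, and had edgeR adjusted p-values of up to 0.0942 without WT replicate 1, WT replicate 3 or Ahrr-deficient replicate 2. The other 8 genes passed only in the fit without Ahrr-deficient replicate 1, with edgeR adjusted p-values of up to 0.202, for Lyar, in the rest. The log2 fold changes of Lyar, Nop16 and Wdr75 fell to 0.33, 0.45 and 0.43 without Ahrr-deficient replicate 2. With all libraries thinned to the smallest total, 4 of the 12 passed, where 5.83% of 10303 tested genes were called higher, and the median log2 fold change of the 45 was 0.28.

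Features of the genes that the choice by name did not use were also compared. Annotated snoRNAs lie inside 8 of the 45 genes (17.8%), against 1.88% of 10566 tested protein-coding genes, 29 snoRNAs in all. The hosts are Taf1d with 8, Nop56 with 5, Nop58 with 4, Ncl, Wdr43 and Gnl3 with 3 each, Tsr1 with 2 and Dkc1 with 1. Of the 8 hosts, Nop58, Dkc1 and Tsr1 rose. The median GC content of the exons was 45.6% for the 12 genes that rose, 50.6% for the other 33 and 49.7% for all tested genes. With offsets for GC content 13 members passed, 12 higher and Nop10 lower, of which 8 were among the 12. Of all tested genes 17.4% were then called, 8.84% higher. Exons of another gene overlap on the opposite strand in 20 of the 45, among them Dkc1, Wdr12, Heatr1 and Tsr1 of the 12 that rose. The genes lie on 16 chromosomes.

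Other genes of the same pathway, from 5 lists that hold none of the 45, gave 14 genes higher (10.4%) and 3 lower of 135 tested. That share is close to the 9.62% called higher among all tested genes. Their log2 fold change was above 0 for 102 of 135, with a median of 0.19, and their summed level was 3902 ± 16.8 CPM in WT and 4182 ± 358 CPM in Ahrr-deficient cells (SD, n = 3 each). The 17 calls in both directions became 1 without WT replicate 1, 1 without WT replicate 2, 2 without WT replicate 3, 3 without Ahrr-deficient replicate 2, 7 without Ahrr-deficient replicate 3 and 55 without Ahrr-deficient replicate 1.

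By list, the other 60S assembly genes had 7 higher and 2 lower of 49. Sdad1, Rpf2 and Nmd3, the last an export adaptor of the 60S subunit, rose by log2 fold changes of 0.57, 0.68 and 0.65 (adjusted p 0.0143, 0.0195 and 0.0197 by edgeR). These calls held in 4, 2 and 1 of the 6 fits with a library left out. Nop53, a 60S factor that recruits the RNA exosome, fell by 0.62 on the log2 scale (adjusted p 0.00407 by edgeR), from 150, 140 and 155 CPM in WT to 93.0, 88.6 and 107 CPM in Ahrr-deficient replicates 1 to 3. Its call held in all 16 alternative fits. Wdr18 fell by 0.31 (adjusted p 0.0400 by edgeR). The Wdr18 call held in 1 of the 6 fits with a library left out and was lost with DESeq2, GC offsets and thinning. The 7 higher calls of this list became 0 without WT replicate 1 or WT replicate 2, and 1 without WT replicate 3 or Ahrr-deficient replicate 2. They became 4 without Ahrr-deficient replicate 3 and 26 without Ahrr-deficient replicate 1. The other processome and 40S genes had 5 higher and 0 lower of 41, among them Dcaf13 at 0.47, Nol11 at 0.45 and Nol10 at 0.53 (adjusted p 0.0211, 0.0277 and 0.0414 by edgeR). None of those 5 calls held with GC offsets, which left 0 higher. The list had 2 higher with DESeq2 and 1 with thinning, 0 without Ahrr-deficient replicate 2 or any 1 WT replicate, 2 without Ahrr-deficient replicate 3 and 15 without Ahrr-deficient replicate 1.

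Among the other polymerase I subunits and factors 0 of 16 were higher and 1 was lower, Polr2e, a subunit shared by all 3 nuclear polymerases, at -0.36 (adjusted p 0.0444 by edgeR). With GC offsets this list had 2 higher and 0 lower. The Polr2e call was also lost after thinning and without Ahrr-deficient replicate 3 or any 1 WT replicate (adjusted p up to 0.155 by edgeR). Factors of snoRNA particle assembly gave no call among 12. The RNA exosome and trimming list had 2 higher of 17, Dis3, a catalytic subunit, at 0.46 and Isg20l2 at 0.32 (adjusted p 0.0380 and 0.0387 by edgeR). It had 0 with DESeq2, after thinning and in 5 of the 6 fits with a library left out, and 4 without Ahrr-deficient replicate 1. Of 13 host RNAs of snoRNAs, Snhg17 was higher by 0.79 and Epb41l4aos lower, at -0.64 (adjusted p 0.0362 and 0.0214 by edgeR), and both calls were lost after thinning and without WT replicate 1, WT replicate 2 or Ahrr-deficient replicate 3.

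**Figure D4:**
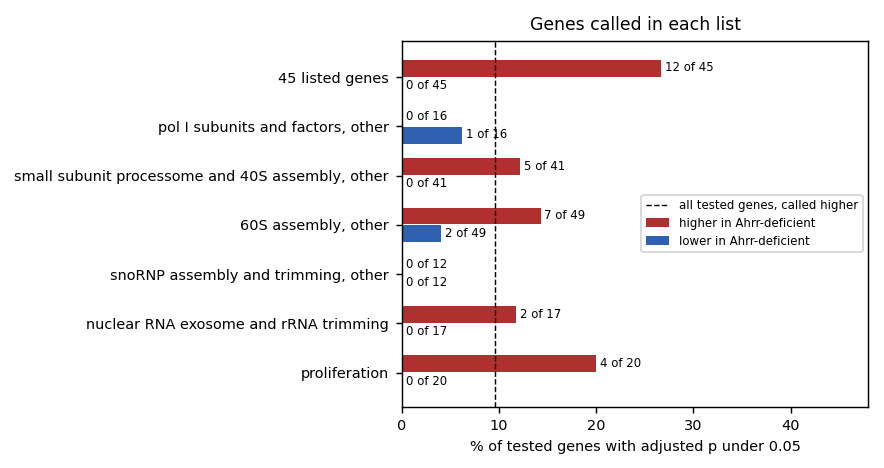
Share of tested genes past the threshold (horizontal axis, percent) in the 45 genes, other lists of the same pathway and the proliferation genes. Higher is in red and lower in blue, with counts beside the bars and a dashed line at the 9.62% called higher among all tested genes. The lists of snoRNA host RNAs, of Myc and its partners and of abundant RNA features are not shown. The 45 genes stand at 12 higher and 0 lower, and the 60S assembly list has calls in both directions.

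Myc was the largest difference among the regulators listed. It had 26.8, 19.0 and 18.7 CPM in WT and 71.8, 107 and 160 CPM in Ahrr-deficient replicates 1 to 3, and rose on the log2 scale by 2.38 (SE 0.27, adjusted p 0.00184 by edgeR). Its order over the Ahrr-deficient libraries differed from that of most of the 45 genes, since replicate 3 and not replicate 2 was highest. Max, the partner of Myc, had a log2 fold change of 0.23 (adjusted p 0.107 by edgeR), and Mxd4, an antagonist, was lower at -0.48 (adjusted p 0.0358 by edgeR). The Myc call held in all 16 alternative fits, while that of Mxd4 was lost with GC offsets and in each fit with a library left out other than the one without Ahrr-deficient replicate 1 (adjusted p up to 0.122 by edgeR). Of 20 proliferation genes 4 rose, where 9.62% of all tested genes did, with log2 fold changes of 1.27 for Top2a, 1.11 for Bub1, 0.88 for Ccnb1 and 0.72 for Mki67 (adjusted p 0.0149, 0.0113, 0.0234 and 0.0411 by edgeR). The groups overlapped for Mki67. The 4 calls became 0 without WT replicate 1, 1 without WT replicate 2, 3 without WT replicate 3, 1 without Ahrr-deficient replicate 2, 1 without Ahrr-deficient replicate 3, 9 without Ahrr-deficient replicate 1 and 1 after thinning. Summed, these 20 genes had 362, 325 and 416 CPM in WT and 371, 482 and 540 CPM in Ahrr-deficient replicates, so replicate 1 lay within the WT range here too. The part of Myc, of proliferation or of the lower macrophage markers in the levels of the 45 genes was not tested.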

How the data were processed

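PolyA RNA of 6 macrophage cultures was sequenced from 100 ng of RNA as single 75 bp reads, per the labels' protocols. The submitters' processing notes name CASAVA 1.8.2, fastp 0.20.0, STAR 2.7.10b, SAMtools 1.16.1, R 4.3.1, DESeq2 1.40.2 and the mm10 build. The counting program, its use of strand and the annotation are not given in the sources used here. The authors deposited raw counts per feature (53465 features, without identifiers) and a normalized signal for 16111 identified genes. That deposited signal equalled whole reads divided by a size factor for 100% of values (tolerance 0.001), and the reads equalled the raw counts, so identifiers were joined. Features without an identifier held 0.0232% to 0.0511% of a library's counts.

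Counts were tested with edgeR 4.0.16 in R 4.3.3 (quasi-likelihood, TMM, filterByExpr, genotype as the only term), two-sided, with Benjamini-Hochberg adjustment over 11408 genes and a threshold of 0.05. The p-values measure the spread between 3 libraries a group. TMM factors were 0.904 to 1.04 and the biological coefficient of variation was 13.0%. Each library counted as 1 replicate, following the labels. Replicates differed by more than sampling noise (chi-square per degree of freedom 5.80 to 175), which cannot show that they come from separate mice. The highest values, 70.0 and 175, were the pairs with WT replicate 2. Reads carry no molecular identifiers, so floors cover counting error only. Coordinates came from GENCODE mouse release 21 (16094 identifiers matched, 14479 with the same version) on GRCm38. RefSeq promoters were matched by symbol. The fit was tested on simulated data.

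Members, lists and tests were chosen with earlier results of these data known. Values per library were given by rule for Ncl, Npm1, Fbl, Nop56, Nop58, Dkc1, Polr1a, Polr1b and for the 8 largest and 4 smallest fold changes among members past the threshold, which covers all 12. From the other pathway lists up to 3 genes past the threshold per direction with the smallest adjusted p were to be named. Other genes with values were chosen after their values were seen. Alternatives were other scalings (RLE, upper-quartile), other filters, DESeq2 1.42.0, limma-voom (limma 3.58.1), a replicate block, GC offsets (lowess span 0.3), thinning, and each library left out. Tables and plots used Python 3.11.15, pandas 2.3.3 and matplotlib 3.10.9.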

Additional observations from a re-analysis of the deposited data

How the results depend on the processing

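Of 720 member values recomputed under 16 alternatives, 585 kept direction and side of the threshold, 76 lost a call, 37 gained one and 22 changed sign. None of the 12 genes past the threshold changed sign in any of them, and they were past it in 116 of 192 values, Dkc1 in all 16. The median log2 fold change of the 45 genes ran from 0.18 without Ahrr-deficient replicate 2 to 0.45 without Ahrr-deficient replicate 1. The ratio of summed levels ran from 1.08 to 1.24 with a library left out. The cause of the changes below was not tested.

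Members past the threshold numbered 21 without a filter on low counts (11.7% of all 24416 tested features), 4 after thinning to the smallest total and 1 to 28 with a library left out. They numbered 14 with DESeq2 (11 of the 12, beside 17.5% of all tested genes), 15 with limma-voom (24.1%) and 12 with RLE scaling (19.5%). Over all tested genes 1198 were past it after thinning and 694 to 3857 with a library left out. The other pathway lists, with 17 in the reported fit, gave 9 with DESeq2, 28 with limma-voom, 4 after thinning and 1 to 55 with a library left out.

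Same-numbered libraries of the genotypes come from different mice, and their deviations from the group means correlated at -0.17, 0.07 and 0.13. Not every library correlated best with its own number. With 3 libraries a group this check cannot exclude a batch shared by same-numbered libraries. With the replicate block 8 members (all among the 12), 6 genes of the other lists and 1390 genes in all (12.2%) were past the threshold. The replicate block with GC offsets gave 2 members, 2 genes of the other lists and 1182 genes in all (10.4%). With the block Polr1b turned to -0.0068, and with the block and GC offsets Ncl turned to -0.052 and Utp14a to -0.0089 on the log2 scale.

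Sign changes were found only in genes not past the threshold, and no turned value was further from 0 than -0.094. With GC offsets Ncl was -0.048, Utp14a -0.0054 and Polr1c 0.019, and after thinning Rrp1b was -0.031, Polr1c 0.062 and Mybbp1a -0.0067. Over the fits that each left out 1 library the log2 fold change ran from -0.011 to 0.12 for Ncl, -0.065 to 0.028 for Npm1, -0.035 to 0.15 for Bop1, -0.060 to 0.22 for Rrp1b, -0.089 to 0.17 for Noc2l, -0.014 to 0.41 for Noc4l, -0.029 to 0.16 for Utp14a, -0.094 to 0.15 for Polr1b, -0.23 to 0.034 for Polr1c and -0.040 to 0.13 for Mybbp1a. Depth was least in Ahrr-deficient replicate 1, where 3 counts are 0.844 CPM.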
